A study of Mus musculus with 12 samples.

Results

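Glycolytic isozymes of male germ cells were compared with their somatic counterparts. The 10 genes were chosen by name as 5 pairs, with the germ-cell isozyme first: Pgk2 and Pgk1, Gapdhs and Gapdh, Ldhc and Ldha, Aldoart1 and Aldoa, and Eno4 and Eno1. All 10 had a row among the 51826 gene entries of the sperm table and among the 23502 entries of the testes table. RNA-seq was performed at postnatal day 56 (P56) on sperm of WT and Xap5l KO males, collected as mature cells from the cauda epididymis. Whole testes of WT and Xap5 cKO mice were sequenced at P16. Each group had 3 replicates, 12 libraries in all. Xap5l KO mice lack Xap5l in every cell through CRISPR-Cas9 editing. In Xap5 cKO mice a floxed Xap5 allele is removed by a Cre recombinase driven from Stra8, a gene of germ cells entering meiosis, so the other cells of the testis keep Xap5. The Xap5l KO and floxed Xap5 lines were made on the C57BL/6J background. The control testes are labelled only WT, and the study names floxed males without Cre as controls when it describes the breeding.

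Sperm swim on ATP that is made in large part by glycolysis along the flagellum, and germ cells replace several glycolytic enzymes by isozymes of their own. Pgk2 is an intronless copy of the X-linked Pgk1, and it takes over phosphoglycerate kinase activity when the X chromosome is silenced in meiosis. Gapdhs encodes the glyceraldehyde-3-phosphate dehydrogenase of the sperm fibrous sheath, Ldhc the testis lactate dehydrogenase, Aldoart1 a retrogene aldolase and Eno4 an enolase of the sperm flagellum. Transcription of Ldhc and Pgk2 starts in meiotic spermatocytes, whereas Gapdhs is a gene of spermatids. The comparison with WT asks how each enzyme step is divided between its germ-cell and somatic isozyme when Xap5l or Xap5 is lost.

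The libraries held between 32251198 and 52308452 counts. Fam50b, the symbol under which Xap5l is listed, had 574, 440 and 419 counts in WT sperm and 18, 23 and 8 counts in Xap5l KO sperm. For Fam50a, the symbol of Xap5, the counts were 819, 811 and 988 in the WT and 673, 616 and 651 in the Xap5 cKO testes. Each genotype also showed a lower level of the other gene. In testes the Fam50b counts were 532, 539 and 197 (WT) against 6, 0 and 7 (cKO), and in sperm the Fam50a counts were 548, 705 and 689 (WT) against 296, 487 and 649 (KO) (log2 fold change -0.76, edgeR adjusted p = 0.0393). In sperm, WT replicate 1 and KO replicate 1 stood apart in their normalisation factors, 0.821 and 0.808, where the other 4 libraries lay between 1.08 and 1.12. In testes, WT replicate 3 stood apart, with a summed level of 7 pachytene spermatocyte markers of 1166 CPM (counts per 1000000, after normalisation) against 2014 and 2043 CPM in the other WT libraries and 259 to 366 CPM in the cKO libraries. Sperm libraries held high levels of elongating spermatid markers (22961 to 47606 CPM summed over 6 genes), and P16 testes held almost none (0.357 to 0.768 CPM). Epididymal epithelium markers were also high in the sperm libraries, at 5217 to 7268 CPM in WT and 3932 to 5266 CPM in KO, and nearly all of it was Crisp1, a gene of the epididymal duct.

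At the full read length, reads of 3 of the 10 genes, Gapdh, Pgk1 and Eno1, could come from near-identical copies. The annotation (GENCODE M21, GRCm38) was searched for stretches of 150 bases, the read length, that each gene's transcript shares with transcripts of other genes. Of these stretches, 74.0% of Gapdh were shared with 49 other genes, mostly processed pseudogenes. For Pgk1, 66.1% were shared with 2 genes, Pgk1-rs7 and Gm5537, and for Eno1, 49.0% with Eno1b and Gm4735. Eno4 shared 0.744% with Hspa12a, a gene on the other strand whose exon overlaps it. Pgk2, Gapdhs, Ldhc, Aldoart1, Ldha and Aldoa shared none at this length. Trimmed reads can be shorter. With stretches of 50 bases, Ldha shared 17.1% with 14 genes and Aldoa 13.9% with 6 genes, Aldoart1 among them. Aldoart1 shared 5.8% with 8 genes, Aldoa and Aldoart2 among them, while Pgk2 and Ldhc again shared none. Levels of Gapdh, Pgk1 and Eno1 are therefore uncertain where the counting split or dropped such reads, and the counting was not stated to use strand, so Gapdhs, Gapdh and Aldoa also cannot be told apart from genes that overlap their exons on the other strand.

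The genes lie on 6 chromosomes in the GRCm38 build. Pgk2, with a single exon, is at chr17:40207015-40208640 and Pgk1, with 11 exon blocks, at chrX:106187100-106203699. Ldha (chr7:46841475-46855627) and Ldhc (chr7:46861203-46878142) are neighbours on the plus strand. Gapdhs (chr7:30729775-30743681) and Aldoa (chr7:126795234-126800751) are on the minus strand of the same chromosome. Gapdh is at chr6:125161715-125166467, Eno1 at chr4:150236721-150248879, Aldoart1, again with a single exon, at chr4:72850583-72852634, and Eno4 at chr19:58943425-58971421.

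Promoters of the 3 germ-cell isozymes that were lower in Xap5 cKO testes, and of 2 of their somatic partners, are printed because the results turn on these pairs. Each sequence runs from 250 bases before to 50 bases after a RefSeq transcript start (GRCm38.p6), 5′ to 3′ on the gene's strand. Capitals mark CCCCGCCC, the letters shared by the binding motifs that the study describes for Xap5 and Xap5l, or its reverse complement GGGCGGGG, and in Ldha also TGACGTCA, the palindromic cAMP response element.
Pgk2 (chr17:40208560-40208859, minus strand): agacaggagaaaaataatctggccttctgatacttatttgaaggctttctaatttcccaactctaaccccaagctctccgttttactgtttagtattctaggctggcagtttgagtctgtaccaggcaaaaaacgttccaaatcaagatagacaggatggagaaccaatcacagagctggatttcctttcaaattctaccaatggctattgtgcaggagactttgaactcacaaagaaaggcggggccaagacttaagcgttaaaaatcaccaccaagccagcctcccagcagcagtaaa
Pgk1 (chrX:106186850-106187149, plus strand): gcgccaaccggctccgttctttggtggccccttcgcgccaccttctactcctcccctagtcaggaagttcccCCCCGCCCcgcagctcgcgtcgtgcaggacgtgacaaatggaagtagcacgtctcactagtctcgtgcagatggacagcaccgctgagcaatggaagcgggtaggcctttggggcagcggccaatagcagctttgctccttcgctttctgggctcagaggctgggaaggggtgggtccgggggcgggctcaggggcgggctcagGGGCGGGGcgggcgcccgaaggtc
Ldhc (chr7:46861013-46861312, plus strand): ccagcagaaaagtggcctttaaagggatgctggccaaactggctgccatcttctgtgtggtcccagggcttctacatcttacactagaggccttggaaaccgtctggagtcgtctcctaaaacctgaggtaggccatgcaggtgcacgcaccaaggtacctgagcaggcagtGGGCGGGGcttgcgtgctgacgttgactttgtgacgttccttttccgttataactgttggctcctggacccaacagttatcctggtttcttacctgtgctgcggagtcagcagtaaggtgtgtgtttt
Ldha (chr7:46845554-46845853, plus strand): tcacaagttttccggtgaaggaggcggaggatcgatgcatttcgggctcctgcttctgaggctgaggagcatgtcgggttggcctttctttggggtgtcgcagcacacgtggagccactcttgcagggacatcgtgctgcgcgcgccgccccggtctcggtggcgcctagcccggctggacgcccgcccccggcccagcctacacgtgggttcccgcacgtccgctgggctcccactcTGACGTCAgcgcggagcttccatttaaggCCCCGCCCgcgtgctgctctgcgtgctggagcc
Eno4 (chr19:58943175-58943474, plus strand): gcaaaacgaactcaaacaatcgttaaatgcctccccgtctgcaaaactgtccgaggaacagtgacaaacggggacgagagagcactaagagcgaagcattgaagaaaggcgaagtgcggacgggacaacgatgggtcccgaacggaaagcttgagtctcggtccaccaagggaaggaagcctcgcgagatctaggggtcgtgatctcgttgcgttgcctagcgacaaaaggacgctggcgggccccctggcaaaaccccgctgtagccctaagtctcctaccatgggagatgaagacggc
The Ldhc window held 1 copy of CCCCGCCC, on the minus strand with its first base 78 bases before the start. The Pgk1 window held 2 copies, beginning 178 bases before and 26 bases after the start. The Ldha window held 1, beginning 17 bases after the start. This Ldha start lies 4329 bases into the annotated gene, and the bases that follow it were not found in a GENCODE transcript of Ldha. RefSeq lists another start for Ldhc and for Ldha, and the windows around those held none of the 3 sets of letters searched. The windows of Pgk2 and Eno4 held none either. Among all 32851 RefSeq mouse promoters of this length, 17.6% held CCCCGCCC on either strand and 1.79% held TGACGTCA. Neither set of letters was in the windows of Gapdhs, Gapdh or Aldoa, and the Eno1 gene held 2 copies of CCCCGCCC in each of 2 overlapping windows and none in another. A further search for GTTGCCAT, a piece of the X-box bound by Rfx factors and present in 1.35% of promoters, found no member. Such matches are letters in a window and not measured binding sites.

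In the phosphoglycerate kinase pair, Pgk1 was lower in KO sperm, and in cKO testes Pgk2 was far lower while Pgk1 rose. In P56 sperm, Pgk2 was at 1441, 839 and 801 CPM in WT and at 1188, 1030.0 and 1953 CPM in Xap5l KO. The groups overlapped, and the log2 fold change of 0.44 (SE 0.36, n = 3 per group) did not pass the test (edgeR adjusted p = 0.415). Here and below, a gene passed where edgeR's quasi-likelihood test gave a Benjamini-Hochberg adjusted p under 0.05 over all genes of the tissue, and was called where its fold change was also above 2. Pgk1 was at 70.9, 80.4 and 84.1 CPM in WT sperm and at 39.1, 44.1 and 55.5 CPM in KO sperm. Every KO library was below every WT library, and Pgk1 fell by 0.76 on the log2 scale (SE 0.21), a 1.70-fold difference (edgeR adjusted p = 0.0462). This pass was lost without WT replicate 2 (0.165), WT replicate 3 (0.174), KO replicate 1 (0.154) or KO replicate 2 (0.152), given as edgeR adjusted p. It was also lost under several other filters and scalings, with edgeR adjusted p of 0.0908 without a filter on low counts, 0.0504 with RLE size factors, 0.187 with library size alone, 0.0589 when mitochondrial and the most abundant genes were left out of TMM, and 0.0677 with a replicate block. DESeq2 gave an adjusted p of 0.0121.

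In P16 testes Pgk2 was at 13.7, 7.35 and 3.31 CPM in WT and at 0.249, 0.0881 and 0.364 CPM in Xap5 cKO, the latter from 8, 3 and 12 counts. The cKO libraries were all below the WT libraries, and WT replicate 3 was the lowest of its group. Pgk2 was 34.3-fold lower in cKO (log2 fold change -5.10, SE 0.64, edgeR adjusted p = 0.000187). Without WT replicate 1 the log2 fold change was -4.50, and over the other single libraries left out it ran from -5.57 to -4.69. Pgk2 was not tested under a filter of at least 10 counts in every sample. Pgk1, in contrast, was at 72.1, 63.9 and 68.6 CPM in WT and at 100.4, 88.1 and 81.3 CPM in cKO. Its libraries did not overlap either, and it rose 1.32-fold (log2 fold change 0.40, SE 0.09, edgeR adjusted p = 0.00569).

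Within each library, the ratio of Pgk2 to Pgk1 per transcript length does not depend on normalisation. In sperm it was 22.8, 11.7 and 10.7 in WT and 34.1, 26.2 and 39.5 in KO, so Pgk2 was the more abundant form in all 6 libraries and more so in each KO library. The ratio was 2.31-fold higher in KO (difference 1.21 on the log2 scale, SE 0.39, exact permutation p = 0.1, the smallest that 3 against 3 libraries can give). In testes it was 0.213, 0.129 and 0.0544 in WT and 0.00295, 0.00131 and 0.00524 in cKO, so Pgk1 was the more abundant form throughout. The testis ratio was 42.0-fold lower in cKO (difference -5.39, SE 0.82, two-sided exact permutation p = 0.1), and the difference was -4.67 with 5 counts added in place of 0.5. Because these are bulk samples, fewer cells that use an isozyme and less of its RNA per cell cannot be told apart, here or in any result that follows.

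**Figure D1:**
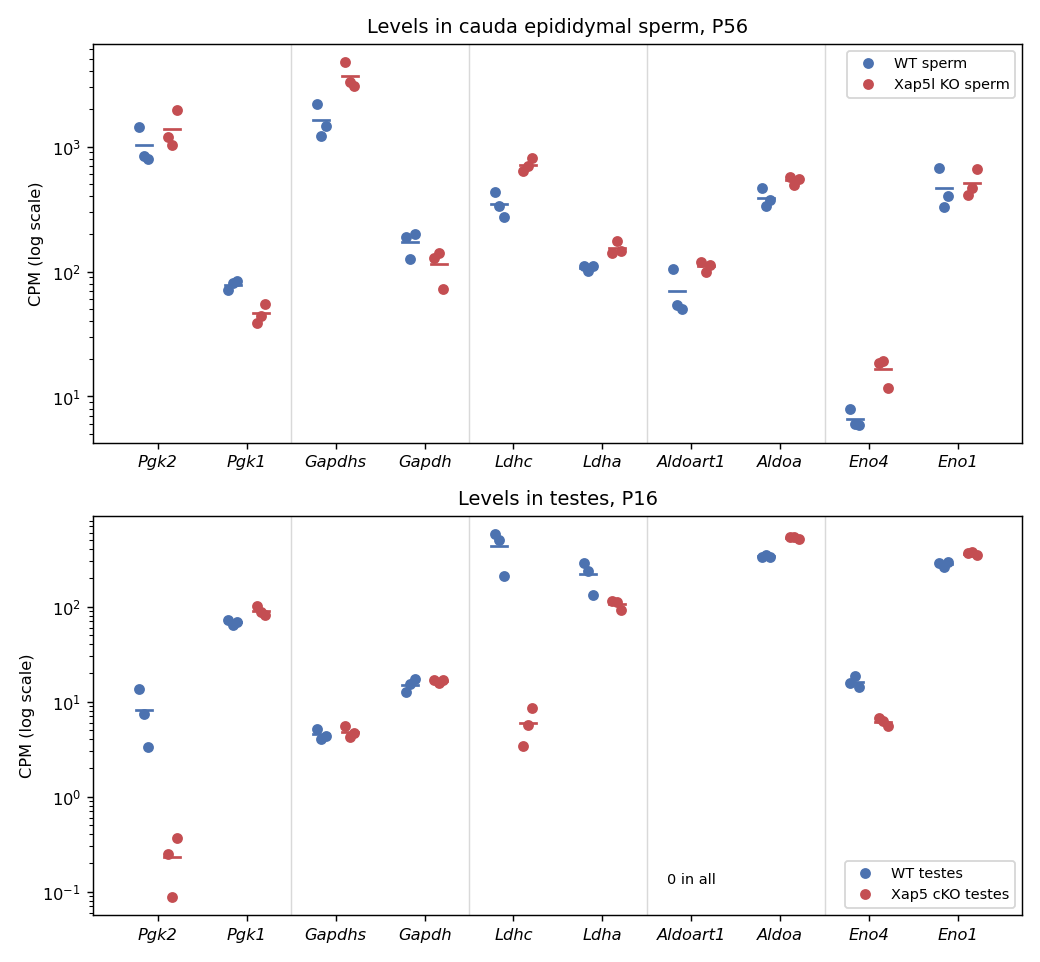
Level of each isozyme in every library, in CPM (log axis), for sperm (top) and testes (bottom). Points are libraries, short lines are group means, and genes are drawn as pairs with the germ-cell isozyme on the left. In testes the cKO points of Pgk2 (0.0881 to 0.364 CPM) and Ldhc (3.39 to 8.56 CPM) lie far under the WT points, and Aldoart1 had no count in any library.

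For lactate dehydrogenase, the last step that turns pyruvate into lactate, the germ-cell isozyme showed the strongest change of all 10 genes in testes. Ldhc was at 577, 505 and 213 CPM in WT testes and at 3.39, 5.72 and 8.56 CPM in cKO testes. The lowest WT library, replicate 3, was still far above the highest cKO library, and Ldhc was 73.1-fold lower in cKO (log2 fold change -6.19, SE 0.45, edgeR adjusted p = 1.77e-05). Without WT replicate 3 the log2 fold change was -6.52. Ldha, the somatic muscle-type subunit, was at 287, 238 and 131 CPM in WT and at 113, 111 and 93.0 CPM in cKO. The groups did not overlap, although WT replicate 3 came close to the cKO libraries, and Ldha was 2.07-fold lower (log2 fold change -1.05, SE 0.24, edgeR adjusted p = 0.00486). The log2 fold change of Ldha was -0.80 without WT replicate 1, -0.98 without WT replicate 2 and -0.96 without cKO replicate 3, in each case under 2-fold with edgeR adjusted p between 0.0148 and 0.0220. Ldha was thus the only somatic isozyme of the 5 that was lower in cKO testes.

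In sperm both genes of this pair, Ldhc and Ldha, were higher in every KO library than in any WT library. Ldhc was at 431, 333 and 272 CPM in WT and at 634, 699.5 and 805 CPM in KO, a 2.07-fold rise (log2 fold change 1.05, SE 0.27, edgeR adjusted p = 0.0382). The edgeR adjusted p of Ldhc was 0.155 without WT replicate 2, 0.181 without WT replicate 3, 0.0805 without KO replicate 1 and 0.11 without KO replicate 2. Ldha was at 111, 100.5 and 111 CPM in WT and at 141, 175 and 145 CPM in KO, but its log2 fold change of 0.52 (SE 0.21) did not pass (edgeR adjusted p = 0.117). The within-library ratio of Ldhc to Ldha was 4.99, 4.26 and 3.16 in WT and 5.80, 5.15 and 7.14 in KO, a 1.47-fold difference (0.55 on the log2 scale, SE 0.24, two-sided exact permutation p = 0.1). In testes this ratio turned over, from 2.59, 2.74 and 2.09 in WT to 0.0387, 0.0666 and 0.119 in cKO (difference -5.19, SE 0.48, two-sided exact permutation p = 0.1). Ldhc was therefore the more abundant of the pair in every WT testis and Ldha in every cKO testis.

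In the glyceraldehyde-3-phosphate dehydrogenase pair, the ratios of WT and KO libraries stood apart in sperm and overlapped in testes. Gapdhs had the highest level per length of the 10 genes in sperm, at 2205, 1224 and 1474 CPM in WT and at 4754, 3309 and 3063 CPM in KO. Each KO library was above each WT library, yet the 2.27-fold difference (log2 fold change 1.18, SE 0.36) did not pass the test (edgeR adjusted p = 0.0589). It did pass without WT replicate 1 (log2 fold change 1.45, edgeR adjusted p = 0.0347) and without KO replicate 3 (1.38, edgeR adjusted p = 0.0308), and with DESeq2 (1.23, adjusted p = 0.000964). The edgeR adjusted p of Gapdhs was 0.220 without WT replicate 2 and 0.219 without WT replicate 3. Without KO replicate 1 it was 0.157, at a log2 fold change of 0.96, and without KO replicate 2 it was 0.130. Gapdh was at 189, 127 and 199 CPM in WT and at 128, 141 and 72.5 CPM in KO, with overlapping groups (log2 fold change -0.59, SE 0.30, edgeR adjusted p = 0.196). The ratio of Gapdhs to Gapdh showed the widest difference of the 5 pairs in sperm. It was 12.1, 10.03 and 7.68 in WT and 38.4, 24.3 and 43.8 in KO, a 3.52-fold difference (1.82 on the log2 scale, SE 0.32, two-sided exact permutation p = 0.1).

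In testes Gapdhs was low in both groups, at 5.09, 4.03 and 4.39 CPM in WT and 5.47, 4.26 and 4.68 CPM in cKO (log2 fold change 0.09, SE 0.22, edgeR adjusted p = 0.749). Gapdh, usually among the most abundant transcripts of a tissue, was listed at 12.7, 15.2 and 17.3 CPM in WT testes and 17.0, 15.6 and 17.0 CPM in cKO testes (log2 fold change 0.13, SE 0.15, edgeR adjusted p = 0.484). Per length, Aldoa was at 223 CPM per kilobase in the same WT libraries and Gapdh at 10.6. The part of shared reads in the low Gapdh level was not tested. The ratio of Gapdhs to Gapdh was 0.417, 0.276 and 0.264 in WT and 0.334, 0.284 and 0.286 in cKO, and overlapped (difference -0.05 on the log2 scale, SE 0.22, two-sided exact permutation p = 1.0).

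The enolase pair, which forms phosphoenolpyruvate, changed in opposite directions in the testes. Eno4 was at 15.6, 18.8 and 14.1 CPM in WT testes and at 6.75, 6.22 and 5.53 CPM in cKO testes, without overlap, and was 2.62-fold lower in cKO (log2 fold change -1.39, SE 0.18, edgeR adjusted p = 0.000202). Eno1, the ubiquitous enolase, was at 289, 261 and 292 CPM in WT and at 367, 372 and 346 CPM in cKO, and rose 1.29-fold (log2 fold change 0.37, SE 0.06, edgeR adjusted p = 0.00102). The ratio of Eno4 to Eno1 was lower in every cKO library, at 0.0428, 0.0569 and 0.0382 in WT and 0.0145, 0.0132 and 0.0126 in cKO (difference -1.75 on the log2 scale, SE 0.18, two-sided exact permutation p = 0.1).

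In sperm Eno4 was the least abundant of the 10 genes and rose 2.48-fold in KO. It was at 7.89, 6.06 and 5.96 CPM in WT and at 18.5, 19.1 and 11.8 CPM in KO, without overlap (log2 fold change 1.31, SE 0.25, edgeR adjusted p = 0.0169). Its edgeR adjusted p was 0.0889 without WT replicate 2, 0.0938 without WT replicate 3, 0.0510 without KO replicate 1 and 0.0708 without KO replicate 2. Eno1 was at 672, 328 and 405 CPM in WT and at 411, 464 and 662 CPM in KO, with overlapping groups (log2 fold change 0.13, SE 0.33, edgeR adjusted p = 0.804). The ratio of Eno4 to Eno1 was 0.00929, 0.0146 and 0.0116 in WT and 0.0356, 0.0325 and 0.0141 in KO. KO replicate 3 fell among the WT libraries, so the 2.18-fold difference (1.12 on the log2 scale, SE 0.47) overlapped (two-sided exact permutation p = 0.2).

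Of the 5 sperm ratios, that of the aldolase pair differed least. Aldoart1 was at 105, 54.0 and 50.4 CPM in WT and at 118, 99.5 and 113 CPM in KO. WT replicate 1 lay among the KO libraries, and the log2 fold change of 0.66 (SE 0.30) did not pass (edgeR adjusted p = 0.151). Without WT replicate 1 it was 1.07 (edgeR adjusted p = 0.0280). Without WT replicate 2 it was 0.49 (edgeR adjusted p = 0.408), and without WT replicate 3 it was 0.46 (edgeR adjusted p = 0.429). Aldoa, the ubiquitous aldolase, was at 466, 336 and 371 CPM in WT and at 567, 497 and 555 CPM in KO. Its groups did not overlap, but the log2 fold change of 0.47 (SE 0.25) did not pass (edgeR adjusted p = 0.211). The ratio of Aldoart1 to Aldoa was 0.167, 0.119 and 0.1001 in WT and 0.154, 0.147 and 0.150 in KO, a 1.20-fold difference that overlapped (0.26 on the log2 scale, SE 0.22, two-sided exact permutation p = 0.4).

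In P16 testes Aldoart1 had 0 counts in all 6 libraries, which allows up to 0.0823 to 0.0933 CPM per library (3 counts, counting error only). It was not tested there and gave no ratio. Aldoa was at 335, 348 and 330.2 CPM in WT testes and at 542, 541 and 514 CPM in cKO testes, which did not overlap, and rose 1.58-fold (log2 fold change 0.66, SE 0.05, edgeR adjusted p = 2.29e-05).

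Read against all genes, the counts were as follows. In sperm, 2 of the 10 genes were called higher (Ldhc and Eno4) and 0 were called lower, where 7.59% of the 20945 tested genes were called higher and 1.27% lower. DESeq2 called 3 higher and 0 lower, and edgeR's unadjusted p was under 0.05 for 4 higher and 1 lower. By adjusted p alone the same 2 genes were higher and 1 was lower (Pgk1), against 9.02% and 3.07% of all genes. In testes, 4 of the 9 tested genes were called lower (Pgk2, Ldhc, Eno4 and Ldha) and 0 higher, against 10.9% lower and 4.15% higher among 16821 tested genes. DESeq2 also called 4 lower and 0 higher, and edgeR's unadjusted p was under 0.05 for 3 that were higher. By adjusted p alone 4 were lower and 3 higher (Pgk1, Aldoa and Eno1), against 28.1% and 25%. The median log2 fold change of the 5 germ-cell isozymes was 1.05 in sperm and that of the somatic isozymes 0.13, where the median of all tested genes was -0.08. In testes it was -3.25 for the 4 tested germ-cell isozymes and 0.37 for the somatic ones, beside -0.01 over all genes. The number of sperm genes called by edgeR changed with the libraries included. It went from 1856 to 2 without WT replicate 2, 2 without WT replicate 3, 3 without KO replicate 2 and 554 without KO replicate 1. It went to 2261 without WT replicate 1 and 2845 without KO replicate 3. Over these fits the log2 fold change ran from 0.89 to 1.23 for Ldhc and from 1.19 to 1.58 for Eno4. In testes the number called stayed between 2246 and 2839 when any library was left out.

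**Figure D2:**
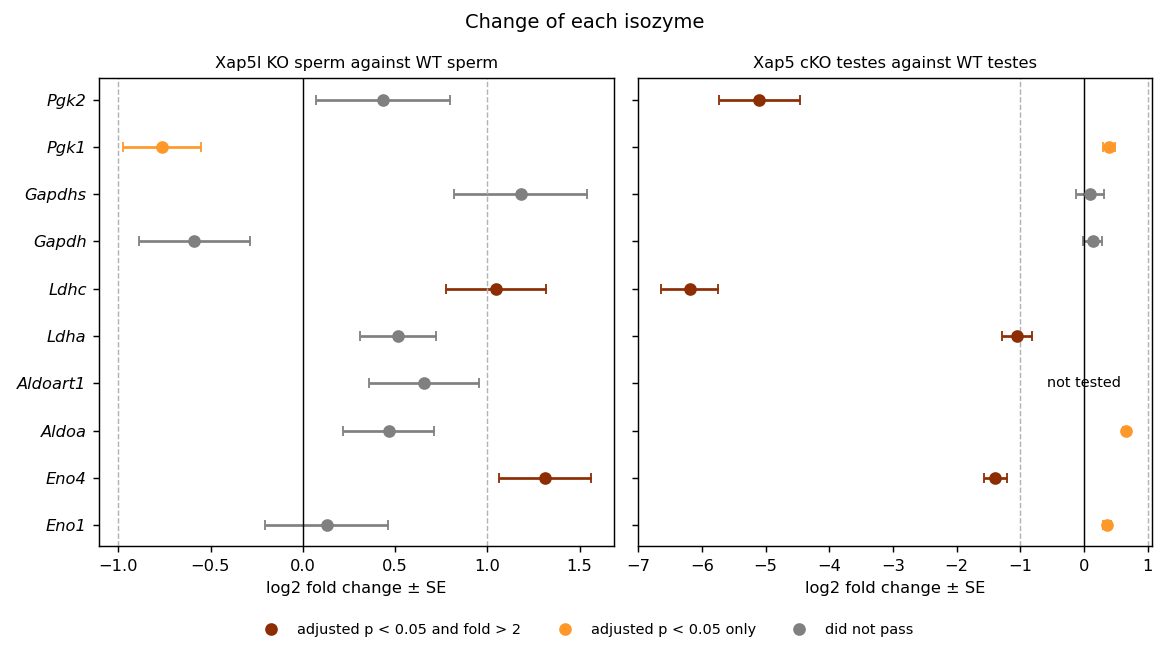
Log2 fold change of each isozyme with its standard error, for Xap5l KO against WT sperm (left) and Xap5 cKO against WT testes (right), from edgeR with 3 libraries per group. Colours give the test result, and dashed lines mark a 2-fold change on the log2 axis. Values run from -0.76 (Pgk1) to 1.31 (Eno4) in sperm and from -6.19 (Ldhc) to 0.66 (Aldoa) in testes.

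Across the pairs, the germ-cell form was more abundant relative to the somatic form in KO sperm than in WT sperm, and less so in cKO testes than in WT testes, except for the Gapdh pair in testes and the 2 sperm pairs that overlapped. The mean log2 ratio was higher in KO sperm for 5 of 5 pairs, and for 3 of them (Pgk, Gapdh and Ldh) the libraries did not overlap. In testes it was lower in 3 of 4 pairs without overlap, and the Gapdh pair overlapped. With 9 such ratio tests, the 6 pairs without overlap had a Benjamini-Hochberg adjusted value of 0.15 from the exact permutation test, so none passed at this number of libraries. For comparison, Pdha2 and Pdha1, the retrogene and X-linked forms of a pyruvate dehydrogenase subunit, gave a ratio 3.66-fold higher in KO sperm and 3.98-fold lower in cKO testes, again without overlap. Not every such gene rose in KO sperm. Ldhal6b, a lactate dehydrogenase relative with 1 exon, was at 78.3, 32.9 and 9.39 CPM in WT sperm. In KO sperm it was at 52.5, 20.9 and 25.8 CPM (log2 fold change -0.28, SE 0.62, edgeR adjusted p = 0.770). In cKO testes Ldhal6b was called lower. The sperm and testes comparisons concern different genes, cells and ages, and the difference between them was not tested.

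**Figure D3:**
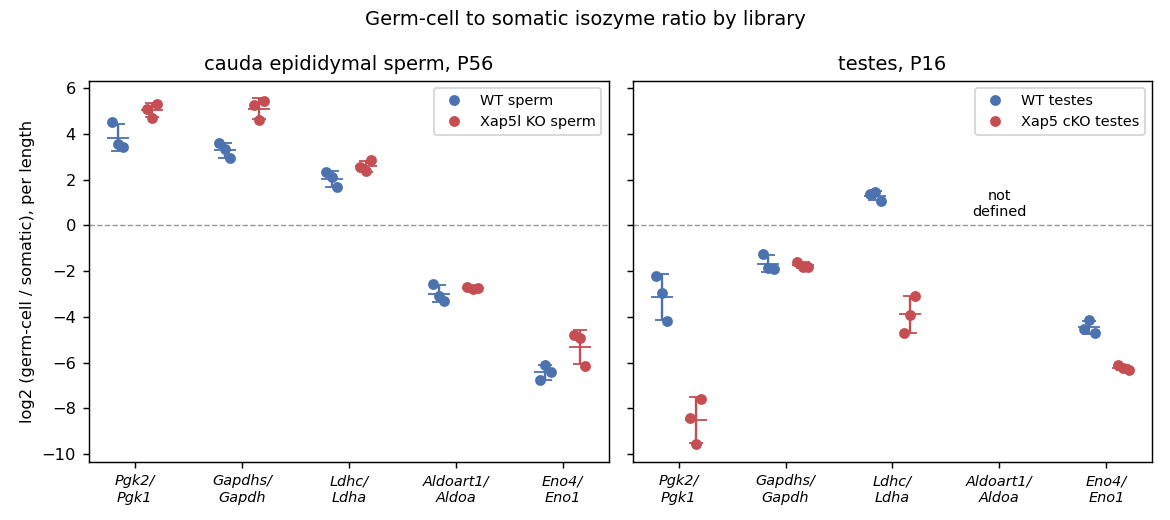
Log2 ratio of the germ-cell to the somatic isozyme per transcript length in each library, for sperm (left) and testes (right). Points are libraries, and bars give the mean and SD of 3 libraries. Mean log2 ratios of Pgk2 to Pgk1 were 3.83 in WT and 5.04 in KO sperm, and -3.13 in WT and -8.52 in cKO testes.

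The order of levels per length is given for sperm and testes separately, from tables that were normalised separately, and it rests on 1 transcript length per gene. In WT sperm it was Gapdhs (1195 CPM per kilobase), Pgk2 (632), Aldoa (259), Ldhc (252), Eno1 (231), Gapdh (121), Ldha (60.9), Pgk1 (43.0), Aldoart1 (34.1) and Eno4 (2.58). Aldoa, Ldhc and Eno1 overlapped as neighbours in this order, as did Pgk1 and Aldoart1, and the other neighbours did not. In KO sperm Ldhc (520.3 CPM per kilobase) stood above Aldoa (357) in every library. In WT testes the order was Ldhc (315 CPM per kilobase), Aldoa (223), Eno1 (138), Ldha (124), Pgk1 (37.4), Gapdh (10.6), Eno4 (6.30), Pgk2 (4.99), Gapdhs (3.29) and Aldoart1 (0). Ldhc and Aldoa overlapped, as did Eno1 and Ldha, Eno4 and Pgk2, and Pgk2 and Gapdhs. In cKO testes Ldhc (4.30 CPM per kilobase) came after Gapdh (11.7), in sixth place.

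Other genes of each enzyme family made up part of the totals. In WT sperm Pgk2 held 91.5 to 95.8% of phosphoglycerate kinase counts per length, and in KO sperm 96.3 to 97.5%. Ldhc held 40.3 to 50.8% of lactate dehydrogenase counts per length in WT sperm and 70.3 to 74.0% in KO sperm, while Ldhb, the heart-type subunit, held 30.2 to 45.7% and 12.1 to 13.4%. In WT testes Ldhc held 25.1 to 40.1%, in cKO testes 0.387 to 0.950%, and there Ldhb held 89.0 to 90.1%. Eno1 held most of the enolase in every library, between 73.4 and 92.1%, and Eno4 at most 4.17%. For aldolase, Aldoart1 held 7.09 to 11.2% in WT sperm and 8.91 to 9.16% in KO sperm, less than the other retrogene aldolase, Aldoart2, at 20.2 to 20.8% and 29.2 to 31.1%.

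**Figure D4:**
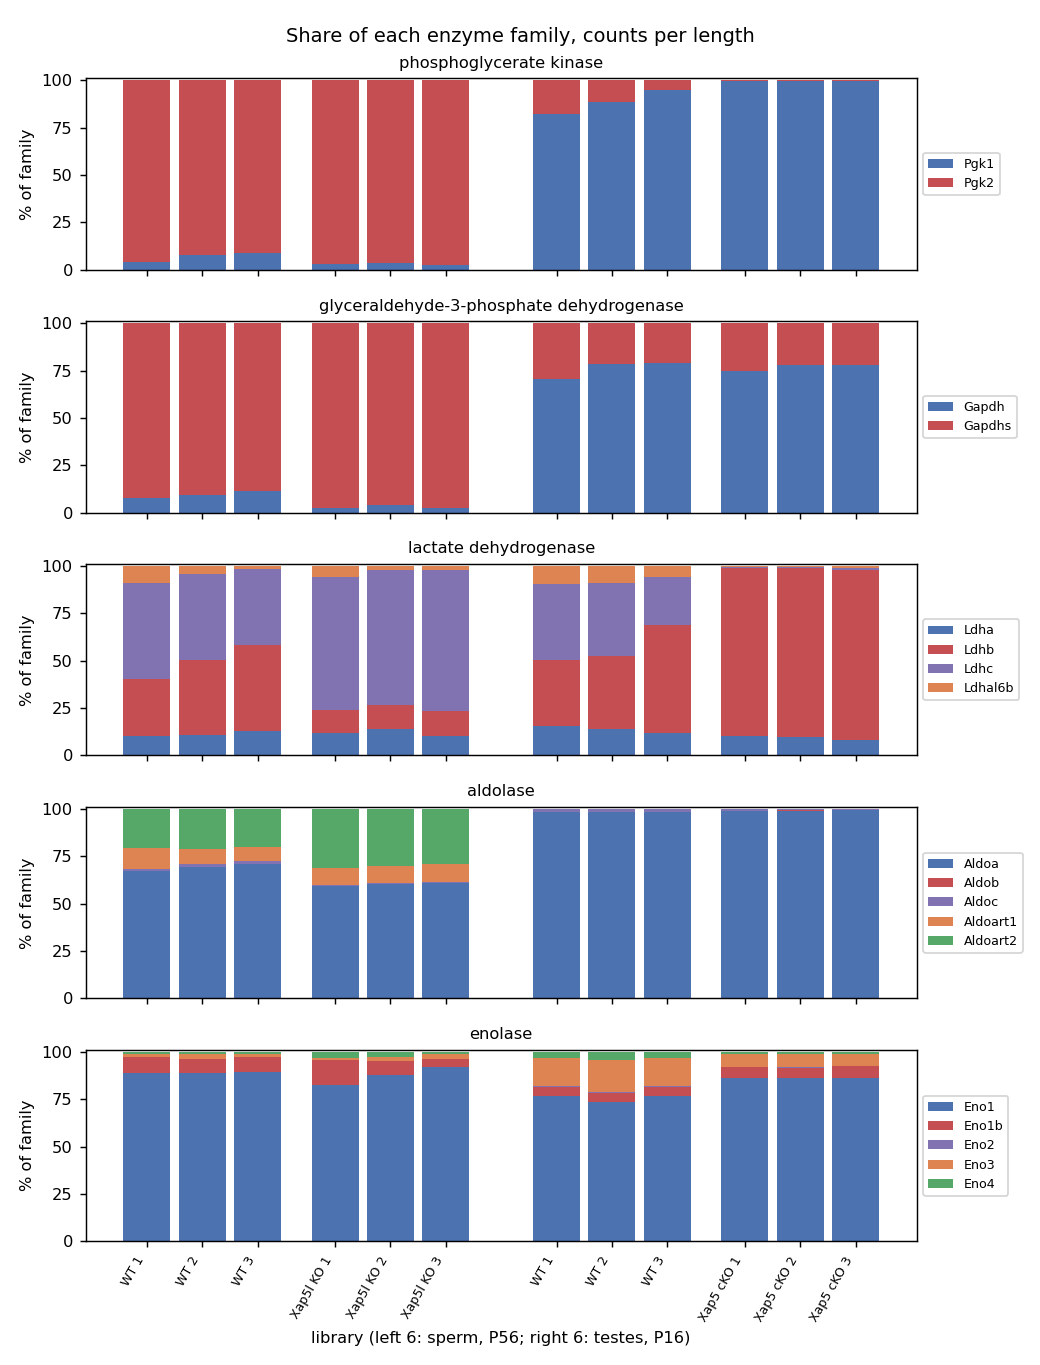
Share of each gene in its enzyme family, in percent of counts per transcript length, with 1 stacked bar per library. The left 6 bars are sperm and the right 6 are testes. Ldhc went from 25.1 to 40.1% of lactate dehydrogenase in WT testes to under 1% in cKO testes, where Ldhb held 89.0 to 90.1%.

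A list of 49 other genes of sugar uptake, glycolysis, lactate transport and pyruvate entry was examined beside the isozymes. In sperm 46 were tested, with 5 called higher and 1 lower (8 and 3 by adjusted p alone), and a median log2 fold change of 0.09. Over all tested sperm genes the shares were 7.59% and 1.27% (9.02% and 3.07% by adjusted p alone). The number called higher was near its share, and the number higher by adjusted p alone was above its share. No set test was run. The 5 were Slc16a7, a lactate transporter (log2 fold change 1.34), Slc2a5, a fructose transporter (1.302), Fbp1, fructose bisphosphatase (1.27), Aldoart2 (1.22) and Pdha2 (1.13), with edgeR adjusted p between 0.0131 and 0.0201. Ldhb was the gene called lower, from 244, 274 and 294 CPM to 104, 121 and 138 CPM (log2 fold change -1.16, SE 0.23, edgeR adjusted p = 0.0177). None of these 6 calls held when WT replicate 2, WT replicate 3 or KO replicate 2 was left out, and 5 of them (not Slc16a7) did not hold without KO replicate 1.

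In testes 44 of the 49 genes were tested, with 1 called higher and 9 lower (15 and 16 by adjusted p alone), and a median log2 fold change of -0.11. Over all tested testes genes 4.15% were called higher and 10.9% lower (25% and 28.1% by adjusted p alone). Fbp1 had 3442, 3162 and 790 counts in WT and 0, 17 and 0 counts in cKO (fitted log2 fold change -8.65, SE 0.89, edgeR adjusted p = 6.95e-05). The fitted value rests on the 17 counts of cKO replicate 2 and is no exact fold: without that library it was -14.23, against libraries at 0. The fructose transporter Slc2a5 (log2 fold change -5.05), the muscle-type phosphoglycerate mutase Pgam2 (-4.58), the lactate dehydrogenase relative Ldhal6b (-4.10) and the high-affinity glucose transporter Slc2a3 (-3.27) were also called lower. Smaller falls were called for Slc16a7 (-1.60), Pdha2 (-1.33), Dlat (-1.08), part of the pyruvate dehydrogenase complex, and Eno3 (-1.06), the muscle enolase. The called rise was Pdk4, a kinase that switches off pyruvate dehydrogenase (log2 fold change 1.07, SE 0.25, edgeR adjusted p = 0.00571). Slc2a3 was at 703, 614 and 271 CPM in WT and 53.3, 54.5 and 56.9 CPM in cKO, so WT replicate 3 was again the lowest of its group, as for Pgk2, Ldhc and Ldha. The Eno3 call was lost without cKO replicate 3 (log2 fold change -0.997) and the Pdk4 call without WT replicate 2 (0.85).

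Several cell type markers moved with these genes. In cKO testes, 6 of 6 leptotene and zygotene markers (880 to 1063 CPM summed in WT, 331 to 400.5 in cKO) and 5 of 7 pachytene markers were called lower, the latter led by Hspa2 (639, 645 and 382 CPM in WT and 113, 112 and 171 CPM in cKO). Of 5 round spermatid markers 2 were tested and none passed, with sums of 6.50 to 11.0 CPM in WT and 9.98 to 11.4 CPM in cKO and Catsper1 at 0. Of 7 spermatogonial markers 2 were called lower (719 to 818 and 467 to 508 CPM). By adjusted p alone 6 of them were lower and 1 was higher. Of 9 Sertoli cell markers 1 was called higher and 8 passed (4678 to 5118 and 8170 to 9691 CPM), and 3 of 6 Leydig cell markers (193 to 336 and 388 to 737 CPM) and 5 of 8 leukocyte markers (74.1 to 108 and 157 to 211 CPM) were called higher, with S100a8 and S100a9 at 0. Among all tested testes genes 4.15% were called higher and 10.9% lower (25% and 28.1% by adjusted p alone). The part of these shifts in the isozyme results was not tested.

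In sperm, 4 of 5 round spermatid markers were called higher in KO (461 to 759 CPM summed in WT, 895 to 1125 in KO), with Tssk2 the most abundant. So were 2 of 7 pachytene markers (519 to 781 CPM in WT and 1720, 1661 and 741 CPM in KO) and 1 of 6 elongating spermatid markers. Sums of the elongating spermatid markers overlapped (22961 to 47606 and 24698 to 45096 CPM). Among all tested sperm genes 7.59% were called higher and 1.27% lower. Of 9 Sertoli cell markers 1 was called lower. Clu, another of them, did not pass but was higher in every KO library (622 to 737 and 1046 to 1311 CPM). None of the 6 Leydig cell markers passed. Of 8 leukocyte markers 1 was called lower, with sums of 739.8 to 773 CPM in WT and 139, 350 and 484 CPM in KO, mostly Lyz2. None of 4 general epithelium markers passed. Their sums were lower in every KO library, at 251, 279.5 and 244 CPM in WT and 162, 186 and 226 CPM in KO. Of the 5 somatic isozymes, Pgk1 was lower in every KO library than in any WT library, Ldha and Aldoa were higher in every KO library, and Gapdh and Eno1 overlapped. The part of these cells and transcripts in the sperm results was not tested.

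Genes whose levels followed the isozymes most closely over the 6 libraries of a tissue were sought among 10985 sperm genes and 12687 testes genes (12686 for Ldhc) with a mean of at least 5 CPM. In sperm they were Mief1, Gnpat and Atpaf2 for Pgk2 (Pearson r from 0.9955 to 0.9958), Agfg1, Ndst3 and Ppp4r1 for Gapdhs (r from 0.9960 to 0.9987), and Cep89, Acyp1 and Pcnx2 for Ldhc (r from 0.9939 to 0.9972). In testes they were Zranb1, Terb2 and Tsnaxip1 for Pgk2 (r from 0.9978 to 0.9994), Cct7, Zc3h14 and Rsbn1 for Ldhc (r from 0.9997 to 0.9999), and Ahcyl1, Plk2 and Mtfp1 for Gapdhs (r from 0.9392 to 0.9587). The points share the same 6 libraries and the difference between genotypes, so these values are a description.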

How the data were processed

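RNA was extracted with TRIzol and libraries were made with the NEBNext Ultra II RNA kit. Per the labels, the authors' processing used FastQC 0.11.2, Trimmomatic 0.36, HISAT2 2.1.0 and DESeq2 1.12.4 on the GRCm38 build. The study's methods add an assembly with StringTie. The deposited values are read counts per gene, not normalized, 1 table per tissue; the counter and its strand setting are not given in the sources used here. The testes table holds no mitochondrial genes and 1608 entries with an added number in the name (such as Eno1-2), which were left as entries of their own. Each tissue was fitted separately with edgeR 4.0.16 (R 4.3.3): genes with low counts were removed (filterByExpr), libraries were scaled by TMM, and genotype was tested by the quasi-likelihood test with Benjamini-Hochberg adjustment, on 20945 sperm and 16821 testes genes. Library totals ran from 32251198 to 52308452 counts, and biological coefficients of variation were 0.287 (sperm) and 0.174 (testes). P-values measure the spread between the 3 replicate libraries of each group. Ratios of isozymes used counts plus 0.5, divided by the length of the longest principal protein-coding transcript in GENCODE M21, and were compared by a two-sided exact permutation test (SciPy 1.17.1). Named genes were the 10 isozymes, the pathway genes called (up to 10 per direction), the pair Pdha2 and Pdha1, the most abundant gene of marker lists that moved, and the 3 genes most correlated with Pgk2, Gapdhs and Ldhc. The members and lists were chosen with earlier results of these data known. RefSeq promoters matched 9 of the 10 isozymes, and Aldoart1 had no entry. Alternatives were other filters and scalings, DESeq2 1.42.0, entries of a gene summed, a replicate block, other thresholds, other added counts, another length and leaving out each library. The fit was tested on simulated data drawn with a common dispersion for all genes. That test cannot show how outlying libraries affect the calls.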

Additional observations from a re-analysis of the deposited data

How the results depend on the processing

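In sperm, 2 isozymes were called; the number was 1 with a replicate block, 0 at an adjusted p under 0.01 (3 isozymes had an adjusted p under 0.05 by edgeR), and 0 to 4 when single libraries were left out (0 without WT replicate 2, WT replicate 3, KO replicate 1 or KO replicate 2, and 4 without WT replicate 1). In the fits that called 0, edgeR's unadjusted p was under 0.05 with a fold above 2 for 2 or 3 isozymes. The edgeR adjusted p of Ldhc was 0.0693 with the replicate block. Gapdhs was called without a filter on low counts (log2 fold change 1.25, edgeR adjusted p = 0.0315) and with library size alone (1.20, edgeR adjusted p = 0.0139). It was not called with at least 10 counts in every sample (edgeR adjusted p = 0.0613), RLE size factors (0.0601) or the replicate block (0.0583). Leaving the filter out moved the median log2 fold change of all sperm genes from -0.08 to 0.13. In testes, 4 isozymes were called, 7 without the fold threshold and 3 with at least 10 counts in every sample; Ldha dropped under 2-fold with the replicate block (log2 fold change -0.98). The labels do not say what a replicate number shares. Deviations of same-numbered libraries correlated at 0.149, -0.0229 and -0.0809 in sperm and 0.0125, -0.0141 and -0.00805 in testes. For differently numbered libraries the range was -0.138 to 0.178 in sperm and -0.0329 to 0.044 in testes. These values cannot show whether samples were paired. Changes of sign appeared for genes and ratios that had not passed: with single libraries left out, the log2 fold change of Eno1 in sperm ran from -0.080 to 0.47 (-0.020 without KO replicate 3), that of Gapdhs in testes from -0.0044 to 0.19, and the log2 difference of the Gapdhs to Gapdh ratio in testes from -0.18 to 0.16. All 50 alternatives for the sperm ratios and 39 of 40 for the testes ratios kept their direction, but many could not have changed it. The replicate block leaves the mean difference of a ratio as it was. The sperm table had no entries with an added number to sum. Leaving out a library cannot reverse a pair whose groups do not overlap. For the isozymes and named genes, 198 of 238 alternatives in sperm and 271 of 278 in testes kept direction and call. With the length of all exons in place of 1 transcript, an alternative chosen after seeing the data, the WT log2 ratio went from 3.29 to 4.595 (Gapdhs to Gapdh), 2.02 to 2.72 (Ldhc to Ldha), -2.99 to -2.05 (Aldoart1 to Aldoa) and -6.42 to -5.02 (Eno4 to Eno1) in sperm, and from -1.68 to -0.37 (Gapdhs to Gapdh), 1.297 to 1.998 (Ldhc to Ldha) and -4.46 to -3.06 (Eno4 to Eno1) in testes, so levels compared between genes depend on the length used, while genotype differences do not depend on length. Why the number of sperm calls changes when single libraries are left out was not tested.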

Other observations

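A second testes entry for enolase 1, Eno1-2, had 1254, 2666 and 1569 counts in WT and 1680, 2277 and 2616 counts in Xap5 cKO, and its groups overlapped in CPM (37.3 to 73.1 and 52.2 to 79.5). The Eno3-2 entry had 1543, 1855 and 925 counts in WT and 275, 305 and 388 counts in cKO, without overlap. In the sperm table, 2 copies that share reads with somatic isozymes had their own entries. Pgk1-rs7 had 34, 64 and 63 counts in WT and 13, 31 and 41 counts in Xap5l KO, and Gapdh-ps15 had 260, 280 and 424 counts in WT and 194, 293 and 202 counts in KO. In CPM, each KO library was below each WT library for both (Pgk1-rs7 at 1.03, 1.52 and 1.36 in WT and 0.371, 0.560 and 0.704 in KO, and Gapdh-ps15 at 7.89, 6.66 and 9.15 in WT and 5.54, 5.29 and 3.47 in KO). Both were at a small part of the counts of Pgk1 (1368 to 3895) and Gapdh (4225 to 9235).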
